A study of Rattus norvegicus with 10 samples.

Results

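Small leucine-rich proteoglycans are secreted matrix proteins, and 8 of their genes were followed here in hippocampal RNA of injured and sham-operated rats. The 8, chosen by gene symbol, were decorin (Dcn), biglycan (Bgn), lumican (Lum), fibromodulin (Fmod), prolargin (Prelp), osteoglycin (Ogn), asporin (Aspn) and osteomodulin (Omd). They are 8 of the 16647 gene symbols in the deposited table, and each had at least 1 row there. The 5 TBI libraries came from male Sprague Dawley rats given traumatic brain injury by fluid percussion, in which a pulse of fluid strikes the dura, and the 5 sham libraries from males of the same strain after sham surgery. The hippocampus was taken 1 week after surgery, following a learning test, and the poly-A RNA was sequenced. The labels do not state whether every library is a rat of its own, and the p-values below measure library-to-library spread, which may be partly technical.

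As background, the core proteins of this family are curved solenoids of leucine-rich repeats that bind collagen and control how collagen molecules pack into fibrils. Decorin and biglycan carry chondroitin or dermatan sulfate chains, and lumican, fibromodulin and osteomodulin are keratan sulfate proteoglycans. Decorin also binds TGF-beta, and free biglycan can act on Toll-like receptors of immune cells. In brain these genes are mostly used by fibroblasts of the meninges, of the choroid plexus stroma and around vessels, and decorin is known as an inhibitor of scar formation.

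Values are FPKM, fragments per kilobase of transcript scaled by library size, as the authors deposited them, so levels of different genes can be set side by side. Column sums ran from 523239 to 629660 FPKM, and the read depth is unknown. Of the 8 genes, 5 had a mean of at least 0.5 FPKM and were tested: Dcn, Bgn, Prelp, Fmod and Lum. The other 3, Ogn, Aspn and Omd, are treated last. The comparison of TBI with sham was fitted with limma on log2(FPKM + 0.5) over all 16194 features that passed this filter, with Benjamini-Hochberg adjustment over all of them. At an adjusted p under 0.05, 0% of the features were called (0 of 16194), and 2.91% had an unadjusted p under 0.05. Of the 5 tested proteoglycan genes 0 were called, and 0 had an unadjusted p under 0.05.

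The libraries differed in their levels of meningeal and choroid plexus transcripts. Excitatory neuron transcripts were present in all 10, with Slc17a7, the vesicular glutamate transporter of these neurons, at 555 to 1082 FPKM in TBI and 697 to 973 FPKM in sham. Prox1, a marker of dentate granule cells, was at 10.8 to 18.05 FPKM in TBI and 6.99 to 22.1 FPKM in sham, and Wfs1, a marker of CA1, was at 64.0 to 161 FPKM in TBI and 70.1 to 265 FPKM in sham. Fibcd1, also a CA1 marker, was listed at 0 throughout on 2 rows, which can be a failed estimate. The 15 meningeal fibroblast markers found in the table summed to 54.6 to 832 FPKM in TBI and 52.7 to 628 FPKM in sham, with 0 of the 15 at 0 in all libraries. On a score of those markers (the mean of centred log2 values), TBI 1 at 1.60, sham 4 at 1.65 and sham 2 at 1.12 stood apart from the other 7 libraries, which lay between -1.17 and -0.10. The 12 choroid plexus markers found in the table summed to 101 to 33230 FPKM in TBI and 57.8 to 32060 FPKM in sham. Their score was below -2 in TBI 2, sham 1, sham 4 and sham 5 and above 1 in the other 6 libraries. In bulk tissue, fewer cells of a type and less RNA per cell cannot be told apart.

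Decorin, which binds fibrillar collagen and TGF-beta, had the highest mean level of the family, at 26.8 FPKM over the 10 libraries. It was at 56.4, 21.5, 15.9, 23.5 and 16.3 FPKM in TBI 1 to TBI 5, against 27.8, 25.5, 15.8, 44.5 and 20.6 FPKM in sham 1 to sham 5. A single library in each group was high, TBI 1 and sham 4, and the groups overlapped. The means were 26.7 ± 16.9 FPKM in TBI and 26.8 ± 10.9 FPKM in sham (SD, n = 5 each), and the log2 difference of TBI minus sham was -0.09 (SE 0.36, 95% interval -0.88 to 0.69, limma's adjusted p = 0.990).

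Biglycan, the closest relative of decorin, was at 35.5, 10.7, 17.8, 10.7 and 12.2 FPKM in TBI 1 to TBI 5, against 9.64, 25.3, 10.9, 46.2 and 11.6 FPKM in sham 1 to sham 5. TBI 1, sham 4 and sham 2 were the 3 highest libraries, and the lowest libraries of both groups were at much the same level. Biglycan averaged 17.4 ± 10.5 FPKM in TBI and 20.7 ± 15.6 FPKM in sham (SD, n = 5 each), a log2 difference of -0.14 (SE 0.46, 95% interval -1.16 to 0.89, limma's adjusted p = 0.988).

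Prolargin, which can anchor basement membranes to connective tissue, was at 39.2, 12.8, 23.8, 21.8 and 21.6 FPKM in TBI 1 to TBI 5, against 9.39, 40.05, 14.2, 26.3 and 13.1 FPKM in sham 1 to sham 5. Of the TBI libraries 4 lay above the sham median of 14.2 FPKM, but TBI 2 lay below it and sham 2 was the highest of all. The means were 23.9 ± 9.59 FPKM in TBI and 20.6 ± 12.6 FPKM in sham (SD, n = 5 each), and the log2 difference was 0.31 (SE 0.39, 95% interval -0.54 to 1.17, limma's adjusted p = 0.983).

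Fibromodulin, which regulates collagen fibril assembly and cross-linking, had the largest ratio of highest to lowest value of the 5. It was at 26.3, 2.16, 10.9, 9.68 and 7.97 FPKM in TBI 1 to TBI 5, against 2.74, 35.2, 5.30, 17.0 and 2.03 FPKM in sham 1 to sham 5. The lowest values stood in TBI 2, sham 1 and sham 5, so both groups held libraries at each end of the range. It averaged 11.4 ± 8.98 FPKM in TBI and 12.5 ± 14.1 FPKM in sham (SD, n = 5 each). On the log2 scale the difference pointed the other way, at 0.25 (SE 0.78, 95% interval -1.48 to 1.98, limma's adjusted p = 0.988).

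Lumican, which like fibromodulin limits fibril diameter, had the lowest mean of the 5. It was at 13.9, 5.14, 3.51, 6.86 and 2.08 FPKM in TBI 1 to TBI 5, against 5.01, 6.91, 1.65, 15.7 and 1.01 FPKM in sham 1 to sham 5. Sham 4 and TBI 1 were high, and sham 3 and sham 5 were lowest. The means were 6.29 ± 4.60 FPKM in TBI and 6.05 ± 5.89 FPKM in sham (SD, n = 5 each), a log2 difference of 0.30 (SE 0.65, 95% interval -1.13 to 1.73, limma's adjusted p = 0.983).

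**Figure D1:**
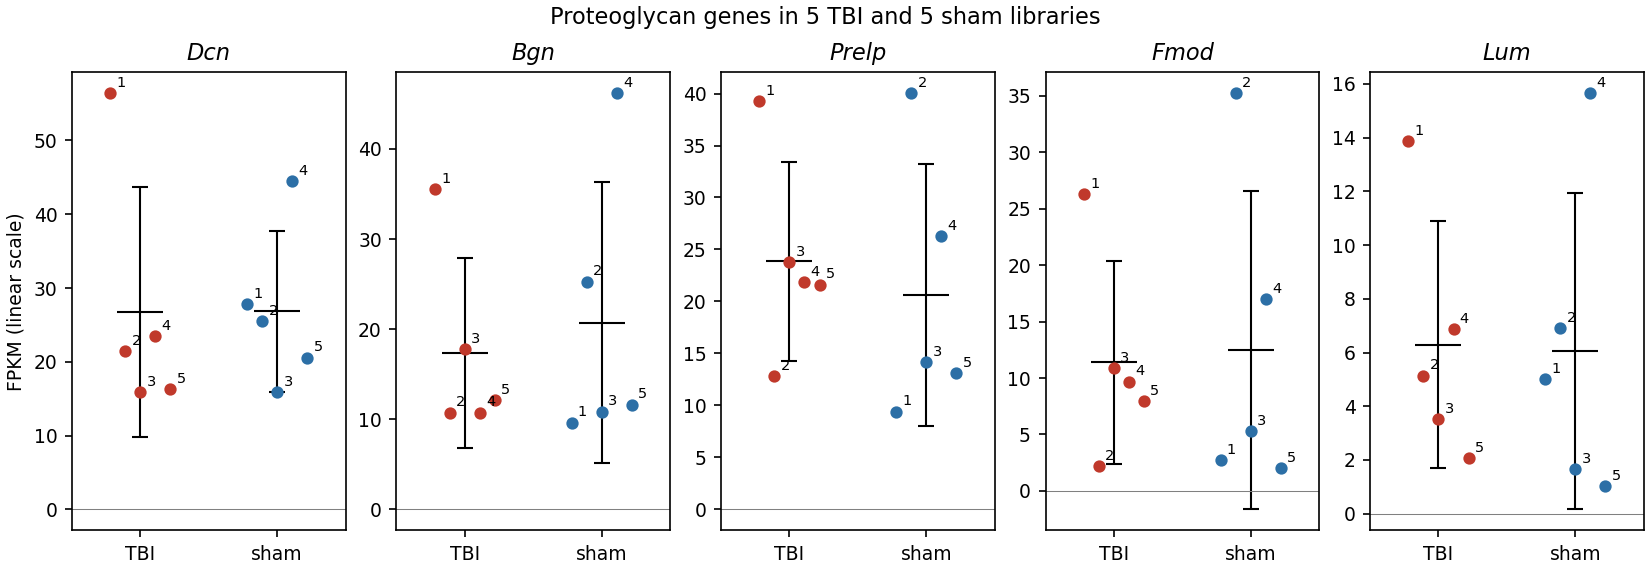
FPKM (linear axis, each panel with its own range) of 5 proteoglycan genes in TBI libraries (red, left) and sham libraries (blue, right); points carry the library number, and bars give the mean and SD of 5 libraries. In all 5 genes the groups overlap, and the highest value of each gene stands in TBI 1, sham 2 or sham 4.

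Of the 5 genes 3 had a positive and 2 a negative log2 difference, where 50.4% of all features tested were positive and 49.6% negative, and the groups overlapped in all 5. Over all features, groups did not overlap at 0.241% with TBI higher and 0.241% with TBI lower. The median log2 difference of the 5 was 0.25, beside 0.0013 for all features tested. An exact two-sided permutation test of each gene gave unadjusted p-values between 0.524 and 0.810, where 0.00794 is the smallest it can give. The 95% intervals of the 5 genes reached as far as 1.98 log2 units for fibromodulin, so differences up to that size are not excluded. The direction depended on single libraries for all but prolargin, which stayed at 0.09 to 0.60 when 1 library was left out. Without TBI 1, the fibromodulin difference was -0.13 and the lumican difference -0.03, and without sham 4 the biglycan difference was 0.22 and the decorin difference 0.11. With the choroid plexus score as covariate the fibromodulin difference was -0.49 and the prolargin difference -0.04.

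**Figure D2:**
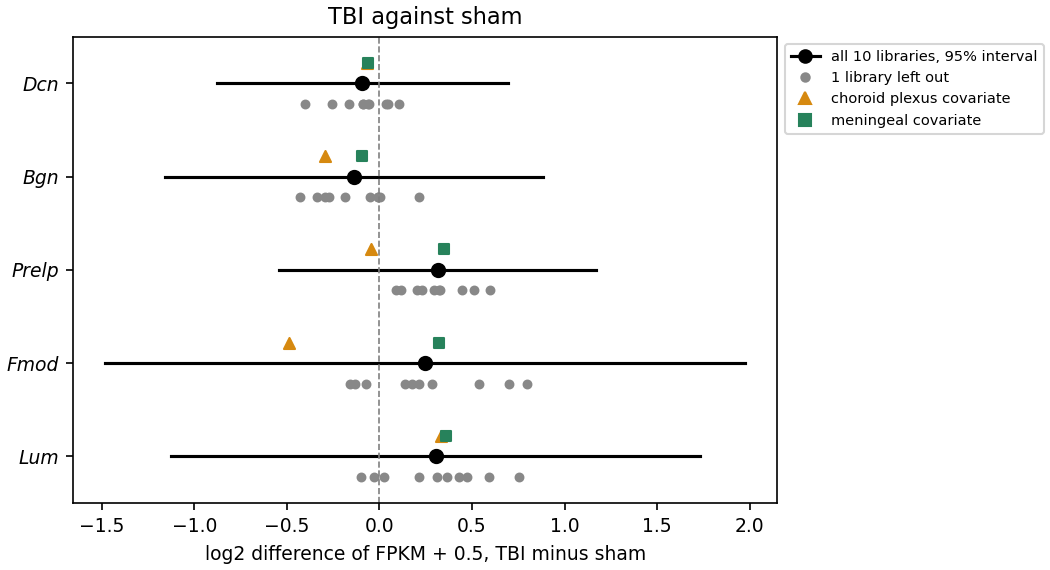
Log2 difference of FPKM + 0.5, TBI minus sham, for 5 genes: black points with 95% intervals use all 10 libraries, grey points leave out 1 library each, and triangles and squares have the choroid plexus or meningeal marker score as covariate. Every interval holds 0, and the fibromodulin triangle lies at -0.49 where the black point is at 0.25.

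With TBI 1, sham 2 and sham 4 left out together, the 3 libraries with the highest meningeal score, 4 TBI and 3 sham libraries remained. These libraries were also the highest in prolargin, at 39.2 FPKM in TBI 1, 40.05 in sham 2 and 26.3 in sham 4. Leaving them out therefore acts on prolargin itself. Prolargin was then at 12.8 to 23.8 FPKM in TBI and 9.39 to 14.2 FPKM in sham. Its log2 difference was 0.67, with an unadjusted p of 0.0195 and an adjusted p of 0.998 in limma's test. Of the 15947 features in this fit, 576 had an unadjusted p under 0.05 in limma's test. The differences of the other genes in this fit were 0.98 for fibromodulin, 0.80 for lumican, 0.23 for biglycan and -0.13 for decorin, all with an adjusted p of 0.998 in limma's test. The choroid plexus score was above 1 in 3 of these 4 TBI libraries and in 1 of the 3 sham libraries, and its part in these values is not separated by this fit.

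The order of levels was similar only in part from library to library. By mean it was decorin, prolargin, biglycan, fibromodulin and lumican. This full order held only in TBI 1, TBI 4, sham 3 and sham 5. Decorin lay above prolargin in 7 of 10 libraries, prolargin above biglycan in 8, biglycan above fibromodulin in 9 and fibromodulin above lumican in 8. Decorin was at 26.8 ± 13.4 FPKM, prolargin at 22.2 ± 10.7, biglycan at 19.1 ± 12.7, fibromodulin at 11.9 ± 11.1 and lumican at 6.17 ± 4.99 (SD over 10 libraries). These SDs describe each gene across libraries and do not measure differences between genes within a library, which were not tested. The leading gene was decorin in 6 libraries, prolargin in TBI 3, TBI 5 and sham 2, and biglycan in sham 4. The 5 genes summed to 171, 52.3, 71.8, 72.6 and 60.2 FPKM in TBI 1 to TBI 5, against 54.6, 133, 47.8, 150 and 48.3 FPKM in sham 1 to sham 5. TBI 1, sham 4 and sham 2 thus held the most proteoglycan RNA by this sum.

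The make-up also moved. Decorin made up 31.1 ± 7.08% of this sum in TBI and 35.1 ± 12.2% in sham (SD, n = 5 each), with a range over libraries from 19.2% in sham 2 to 50.9% in sham 1. Fibromodulin made up 12.3 ± 4.64% in TBI and 11.6 ± 8.95% in sham (SD, n = 5 each), with a range from 4.14% in TBI 2 to 26.5% in sham 2. Choroid plexus markers summed to 101 FPKM in TBI 2, 57.8 FPKM in sham 1 and 32060 FPKM in sham 2, the libraries at the ends of these ranges. TBI 1, with a choroid plexus sum of 33230 FPKM, and sham 4, with 95.4 FPKM, stood at no end of either range. The part of that tissue was not tested.

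**Figure D3:**
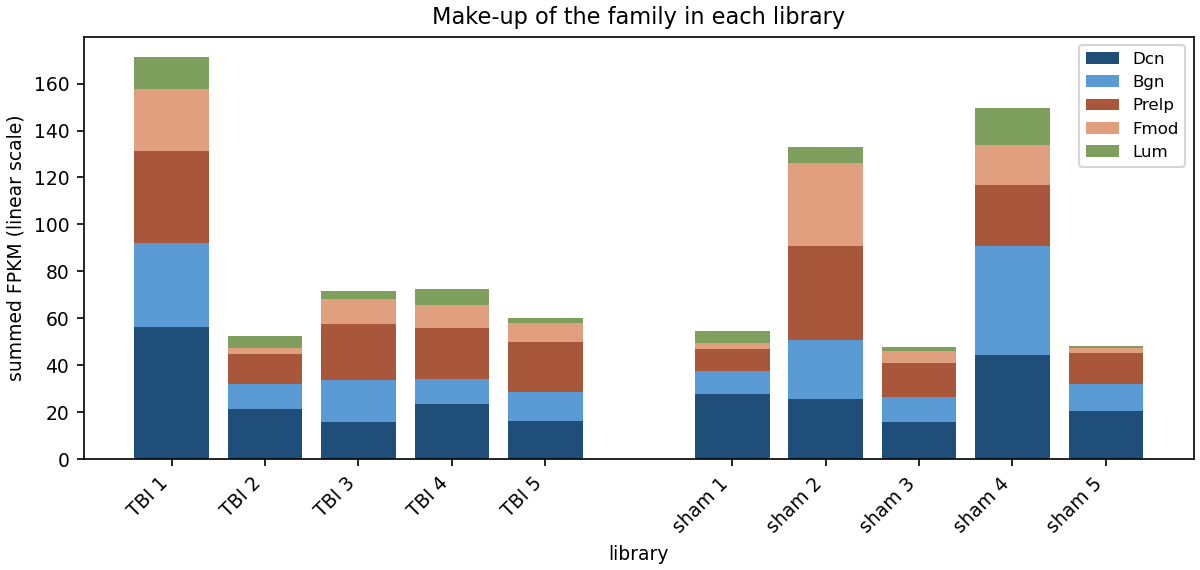
Summed FPKM (linear axis) of the 5 tested proteoglycan genes in each library, TBI on the left and sham on the right, split by gene. TBI 1, sham 4 and sham 2 reach 171, 150 and 133 FPKM, and the other 7 libraries stay between 47.8 and 72.6.

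All 5 genes varied more between libraries than most of the transcriptome. The SD of log2(FPKM + 0.5) over the 10 libraries was 1.35 for fibromodulin, 1.12 for lumican, 0.80 for biglycan, 0.68 for prolargin and 0.61 for decorin, where the median of all features tested was 0.23 and the 90th percentile 0.56. Fibromodulin's highest value was 17.4 times its lowest, lumican's 15.4 times, and decorin's 3.56 times.

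The 5 profiles fell together in part. Likeness was measured as the root mean square difference between centred log2 profiles over the 10 libraries, with 0 for identical profiles. Prolargin and biglycan were nearest, at 0.47, followed by decorin and biglycan at 0.51. Decorin and fibromodulin were farthest apart, at 1.13. This measure also grows with the spread of a gene. Fibromodulin lay on the same side of its mean as prolargin in 9 of the 10 libraries, and as biglycan also in 9. The count was 8 for prolargin with biglycan, 8 for decorin with biglycan and 7 for decorin with fibromodulin. In TBI 3, TBI 4, TBI 5 and sham 3, which had a choroid plexus score above 1 and a meningeal score below 0, fibromodulin was at 5.30 to 10.9 FPKM and prolargin at 14.2 to 23.8. In TBI 2, sham 1 and sham 5, which were low in both scores, fibromodulin was at 2.03 to 2.74 FPKM and prolargin at 9.39 to 13.1. Decorin was at 15.8 to 23.5 FPKM in those 4 libraries and at 20.6 to 27.8 FPKM in those 3, with some overlap. Sham 4, rich in meningeal and poor in choroid plexus transcripts, had the highest lumican and biglycan of all libraries. These libraries were set apart by the marker scores, and what the markers contribute was not tested.

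**Figure D4:**
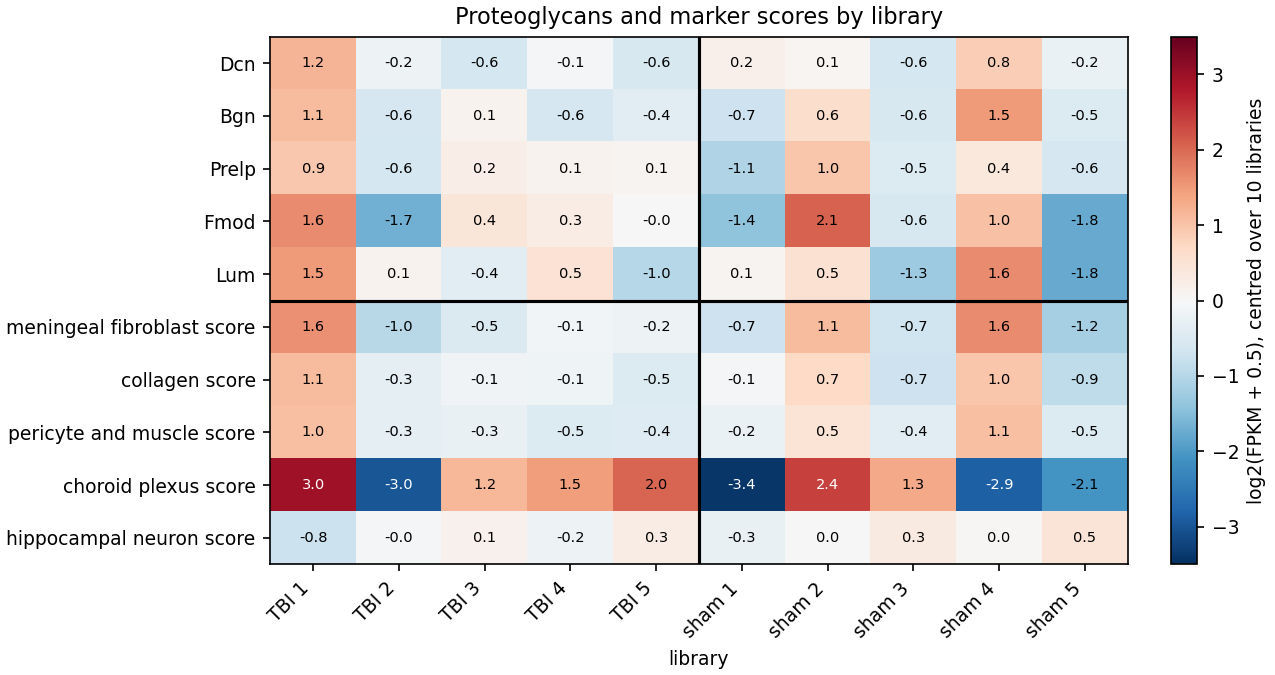
Log2(FPKM + 0.5), centred over the 10 libraries, of 5 proteoglycan genes (top) and the scores of 5 gene lists (bottom), TBI libraries left of sham libraries. TBI 1, sham 2 and sham 4 lie above 0 for all 5 genes and for the meningeal score, and among the other 7 libraries fibromodulin is lowest in TBI 2, sham 1 and sham 5.

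The scores of 10 marker lists were set beside the 5 profiles by the same measure. The pericyte and smooth muscle score lay nearest to biglycan (root mean square difference 0.26) and to decorin (0.30), where the meningeal score was at 0.43 and 0.66. The meningeal score lay nearest to fibromodulin (0.60) and lumican (0.63). Prolargin was nearest to the blood cell score (0.40), which rests on 3 genes, followed by the pericyte and smooth muscle score (0.49) and the meningeal score (0.58). For scale, a flat profile, the same in every library, lay at 1.28 from fibromodulin, 1.06 from lumican and 0.75 from biglycan. It lay at 0.65 from prolargin and 0.58 from decorin. The meningeal score was thus farther from decorin than a flat profile. The choroid plexus score, which has a far wider range, was the farthest list from each of the 5, at 1.81 from fibromodulin and 2.60 from lumican. What the cells of any list contribute was not tested. Pericyte and smooth muscle markers summed to 98.3 to 347 FPKM in TBI and 96.6 to 353 FPKM in sham, and their score was also highest in sham 4 (1.06), TBI 1 (1.04) and sham 2 (0.49). The 11 genes of this list differed in spread. The SD of their log2 values was 0.97 to 1.25 for Acta2, Tagln, Myh11, Cnn1 and Vtn and 0.66 for Anpep. It was 0.16 to 0.33 for Pdgfrb, Rgs5, Kcnj8, Abcc9 and Cspg4. The score averages wide and narrow genes, and the measure depends on spread. Its nearness to biglycan and decorin therefore does not show a like pattern in each gene of the list. Hippocampal neuron markers were lowest in TBI 1, with a score of -0.76 where the other 9 libraries lay between -0.26 and 0.45.

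**Figure D5:**
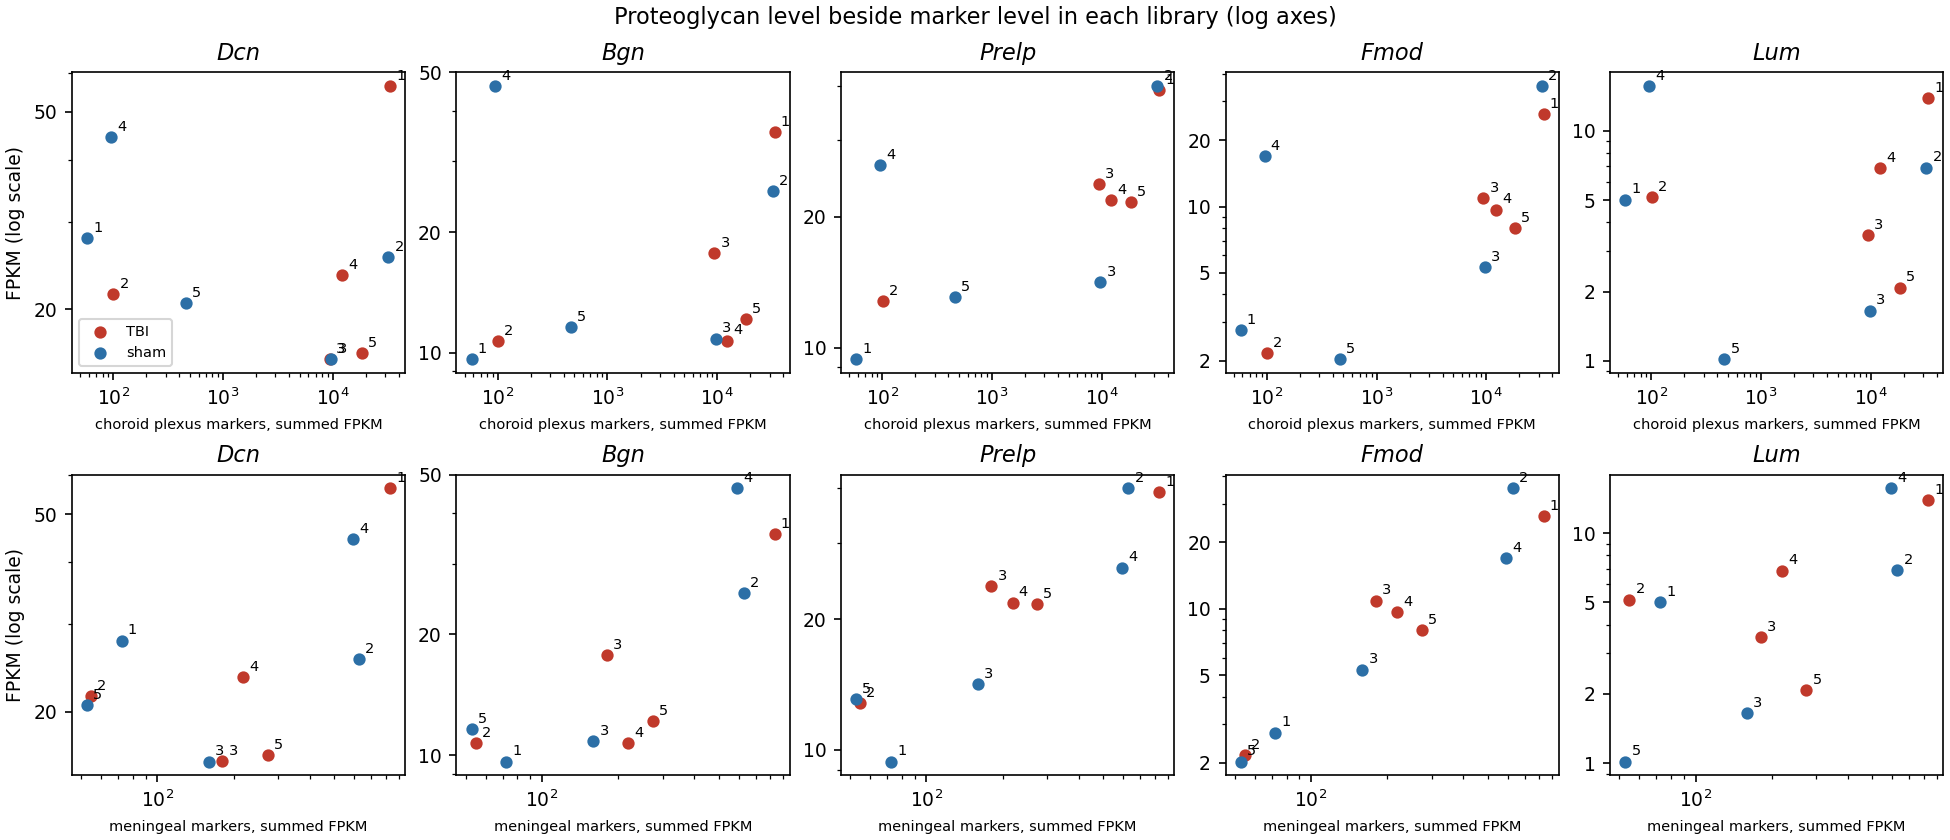
FPKM of 5 proteoglycan genes (vertical log axes) against the summed FPKM of choroid plexus markers (top row) or meningeal fibroblast markers (bottom row, horizontal log axes), with 1 point per library, TBI red and sham blue, and library numbers beside the points. Fibromodulin is at 2.03 to 2.74 FPKM in the 3 libraries with the lowest meningeal sums, and sham 4 is high in the 5 genes with a low choroid plexus sum. Igf2 alone holds much of the meningeal sum, with 445 of 832 FPKM in TBI 1 and 89.9 of 160 FPKM in sham 3. In TBI 2, sham 1 and sham 5, the libraries with the lowest meningeal sums, Igf2 is at 10.6 to 13.3 FPKM. It is at 89.9 to 165 FPKM in TBI 3, TBI 4, TBI 5 and sham 3, where choroid plexus sums are 9364 to 18290 FPKM. What this adds to the meningeal sum was not tested. On the meningeal score, sham 1 at -0.73 and sham 3 at -0.70 lie close together.

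In the RefSeq gene order of the assembly GRCr8, used here only for names and neighbours, most of the family lies in 3 clusters. Dcn, Lum, Kera and Epyc follow each other on chromosome 7, Optc, Prelp and Fmod on chromosome 13, and Ogn, Omd and Aspn on chromosome 17, whereas Bgn on chromosome X has no relative within 3 coding genes. Neighbours differed widely in level. Keratocan (Kera), a corneal proteoglycan beside Lum, was at 0 to 0.0534 FPKM in TBI and 0 to 0.0326 FPKM in sham. Epiphycan (Epyc), a cartilage proteoglycan, was at 0 to 0.123 FPKM in TBI and 0 to 0.187 FPKM in sham. Opticin (Optc), beside Prelp, was at 1.90 FPKM in TBI 1 and 0.181 to 0.718 FPKM in the other TBI libraries, against 0.216 to 0.521 FPKM in sham.

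The start regions of Lum and Fmod are shown since these were the 2 most variable members and belong to different clusters. RefSeq promoter windows of 300 bases, from 250 before to 50 after the annotated start, were matched for 5 of the 8 members, and those of Lum and Fmod read, on the plus strand of GRCr8, chr7:34245456-34245755 and chr13:48045317-48045616.
Lum: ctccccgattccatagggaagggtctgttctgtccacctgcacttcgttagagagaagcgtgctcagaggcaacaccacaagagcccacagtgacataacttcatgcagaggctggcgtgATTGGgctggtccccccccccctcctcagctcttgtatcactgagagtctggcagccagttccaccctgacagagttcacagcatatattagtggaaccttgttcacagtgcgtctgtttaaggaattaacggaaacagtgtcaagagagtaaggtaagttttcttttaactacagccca
Fmod: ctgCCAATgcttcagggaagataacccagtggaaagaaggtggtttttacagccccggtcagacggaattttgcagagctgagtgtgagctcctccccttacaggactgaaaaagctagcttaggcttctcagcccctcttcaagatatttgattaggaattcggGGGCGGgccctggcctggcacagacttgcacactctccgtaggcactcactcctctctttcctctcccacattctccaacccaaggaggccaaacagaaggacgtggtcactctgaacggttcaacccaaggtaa
Capitals mark matches on either strand to CCAAT, found in 37.5% of 33469 such windows, and to the GC box GGGCGG, found in 33.1%. Lum held 1 CCAAT match at position -130, read as ATTGG, and Fmod held 1 at -247 and 1 GC box at -85, counted from the start site. TATAAA, present in 14.2% of windows, and the AP-1 motif TGANTCA, present in 7.33%, had no match in either window, and the E-box CANNTG, present in 72.1% and left in lower case, had 1 match in Lum. These are matches of letters only.

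Other genes of the pathway were read from lists of related genes, and 0 of their tested members passed the adjustment. Of the further family members, 6 of 10 matched a row and 3 were tested, all 3 with a positive log2 difference (median 0.45). These were opticin, nyctalopin (Nyx) and tsukushi (Tsku), each highest in TBI 1, at 1.90, 9.29 and 3.41 FPKM. Their score was 1.96 in TBI 1, beside -0.45 to -0.002 in the other TBI libraries and -0.51 to 0.21 in sham. Tsku, an inhibitor of BMP signalling, was at 1.77 ± 1.06 FPKM in TBI and 1.13 ± 0.724 FPKM in sham (SD, n = 5 each). Of 8 tested collagens of fibrils or their surfaces 5 had a positive and 3 a negative difference (median 0.05). Col5a3 was at 5.15 ± 0.932 FPKM in TBI and 4.38 ± 0.488 FPKM in sham (SD, n = 5 each), and Col3a1 at 4.40 ± 6.29 FPKM in TBI and 8.59 ± 13.2 FPKM in sham (SD, n = 5 each). The Col3a1 means rest on few libraries, with 15.6 FPKM in TBI 1, 8.95 in sham 2 and 31.3 in sham 4. All 5 TBI libraries lay above its sham median of 1.12 FPKM, and its log2 difference was -0.29 (SE 0.96, limma's adjusted p = 0.988). The collagen score was highest in TBI 1 (1.10), sham 4 (0.98) and sham 2 (0.70), the libraries highest in the proteoglycan sum.

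Of 14 tested genes of procollagen processing and cross-linking, 9 had a positive and 5 a negative difference (median 0.08). The procollagen proteinase Bmp1, which also trims pro-biglycan and pro-decorin, was at 10.1 ± 2.41 FPKM in TBI and 8.92 ± 2.62 FPKM in sham (SD, n = 5 each). Adamts3, which removes procollagen amino-propeptides, was at 6.12 ± 1.55 FPKM in TBI and 4.96 ± 1.15 FPKM in sham (SD, n = 5 each). Neither passed, with an adjusted p of 0.983 in limma's test for both.

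Among 19 tested ligands and receptors bound by the family 15 had a positive and 4 a negative difference, with a median of 0.06. Bmp4, a growth factor that biglycan binds, was at 5.85 ± 2.20 FPKM in TBI and 3.54 ± 2.08 FPKM in sham (SD, n = 5 each), with a log2 difference of 0.78 (SE 0.41, limma's adjusted p = 0.983). Tgfb2, a TGF-beta ligand, was at 14.1 ± 5.89 FPKM in TBI and 10.3 ± 3.61 FPKM in sham (SD, n = 5 each).

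For the enzymes that build the sugar chains, the median SD of log2 values over the 10 libraries was 0.22 for chondroitin and dermatan sulfate synthesis and 0.29 for keratan sulfate synthesis, beside 0.80 for the 5 proteoglycans and 0.23 for all features. The widest of them were B4galt1, a galactosyltransferase, at 0.66 and Dse, a dermatan sulfate epimerase, at 0.58, both chosen after their values were seen. Of 17 tested chondroitin and dermatan sulfate genes 6 had a positive and 11 a negative difference (median -0.04). The chondroitin polymerizing factor Chpf was at 58.1 ± 5.81 FPKM in TBI and 67.0 ± 7.25 FPKM in sham (SD, n = 5 each), a log2 difference of -0.20 (SE 0.10, limma's adjusted p = 0.983). B3gat3, which completes the linker to the core protein, was at 88.6 ± 4.35 FPKM in TBI and 96.1 ± 8.06 FPKM in sham (SD, n = 5 each). Of 7 tested keratan sulfate genes 3 had a positive and 4 a negative difference (median -0.04). The galactosyltransferase B4galt2 was at 24.6 ± 5.06 FPKM in TBI and 29.8 ± 2.96 FPKM in sham, and B3gnt7, which extends keratan sulfate, at 2.59 ± 0.208 FPKM in TBI and 2.22 ± 0.379 FPKM in sham (SD, n = 5 each).

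The genes most like the family were ranked over all 10 libraries among named genes with a mean of at least 1 FPKM, by the same root mean square difference to the mean profile of the 5. Nearest was Flna, which cross-links actin filaments (0.21), at 12.2 ± 9.62 FPKM in TBI and 12.9 ± 9.03 FPKM in sham (SD, n = 5 each). It was followed by the basement membrane protein Nid2 (0.21), Cpxm2 (0.23), the interleukin-1 receptor Il1r1 (0.24), the tropomyosin Tpm2 (0.24), Ecm1 (0.25), the basement membrane collagen Col18a1 (0.25), the metalloproteinase inhibitor Timp1 (0.25), the organic anion transporter Slc22a8 (0.25) and Fmo1 (0.26). Slc22a8 is also on the meningeal list. The nearest gene to each member was Adamts15 for decorin (0.19), Col18a1 for biglycan (0.16), the lysyl oxidase Loxl1 for prolargin (0.20), Bmp7 for fibromodulin (0.43) and Col6a2 for lumican (0.29). By this measure fibromodulin had the least close neighbour of the 5, but the measure grows with the spread of a gene. The distance to a flat profile was 1.28 for fibromodulin, 1.06 for lumican, 0.75 for biglycan, 0.65 for prolargin and 0.58 for decorin. The ranking therefore does not show that fibromodulin is less like other genes in pattern.

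Osteoglycin, asporin and osteomodulin, best known from bone, cartilage and other connective tissue, were listed at or near 0. Osteoglycin was at 0.0827 FPKM in TBI 1, 0.0190 in TBI 3, 0.0194 in TBI 4 and 0.0374 in sham 4, and at 0 in the other 6 libraries. Asporin and osteomodulin were listed at 0 in all 10. Each of these 3 genes stands on 2 rows of the table, in a block that is repeated in the row order, and Nol8, a nucleolar gene used by cells in general, stands on 2 rows of that block and was also at 0 in all 10 libraries. Of the 1352 symbols with 2 or more rows, 21.7% were at 0 in every library, beside 14.7% of the 15295 symbols with 1 row. Col1a2, the partner chain of Col1a1 in type I collagen, was likewise listed at 0 in every library, although Col1a1 was at 2.39 to 30.5 FPKM in TBI and 1.54 to 34.3 FPKM in sham (both chosen after their values were seen). A 0 in this table can therefore be a failed estimate, and no statement on the use of these 3 genes is made.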

How the data were processed

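RNA of 10 rat hippocampus libraries was measured, 5 TBI and 5 sham, with groups and replicate numbers from the labels. The authors deposited FPKM values per locus. The rn5 build and the tools Cufflinks, Cuffdiff, Bowtie, Bowtie2, TopHat and TopHat2 are named per the submitters' processing notes. Versions, roles, gene annotation and any filter: not given in the sources used here. FPKM is divided by transcript length and library total, so a very abundant transcript can lower the others, and strand is not separated.

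Of 25269 rows, 7177 name no gene. Rows sharing a symbol were summed per library, which left 23824 features. Low values gave no whole reads, so no count test was run and depth is unknown. A status other than OK stood at 81 rows, 0 of them a proteoglycan gene's. The fit used limma 3.58.1 in R 4.3.3 (lmFit, then eBayes with trend, two-sided p) on log2(FPKM + 0.5), for features whose mean reached 0.5 FPKM, and was checked on simulated data. No 2 columns were identical.

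All 8 genes are named. From each list the 2 to 4 genes with the smallest p may be named, and the nearest genes by likeness. The genes, lists and tests were chosen with earlier results of these data known. Promoter motifs and a few genes, where stated, were chosen after seeing values. Alternatives covered pseudocount, filter, row summing, scaling, variance model, array weights, replicate block, an exact permutation test, marker scores as covariates and left-out libraries.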

Additional observations from a re-analysis of the deposited data

Results flagged for a closer look

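In TBI 1, decorin at 56.4 FPKM and biglycan at 35.5 FPKM stood far from the other 4 TBI libraries, which lay at 15.9 to 23.5 FPKM for decorin and 10.7 to 17.8 FPKM for biglycan. On linear FPKM, the gap to the nearest library exceeded Dixon's 95% critical value of 0.71 of the group's range in both. The rule was not applied to log2 values of these genes, the scale of the fits, so the marks hold for linear FPKM only. On centred log2 values TBI 1 was at 1.19 for decorin, beside -0.61 to -0.06 in the other 4. For biglycan it was at 1.10, beside -0.58 to 0.12. Of 14 groups examined 2 were so marked, and chance marks about 1 in 20. TBI 1 also had the highest sums of meningeal markers (832 FPKM) and choroid plexus markers (33230 FPKM) of the 10 libraries, and their part in these values was not tested.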

How the results depend on the processing

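Of the proteoglycan genes 0 passed the adjustment in any of the 24 alternatives. With choroid plexus score as covariate the difference of fibromodulin was -0.49 and that of prolargin -0.044, and that of biglycan was 0.23 with TBI 1, sham 2 and sham 4 left out together; the cause was not tested. Leaving out 1 library at a time gave -0.40 to 0.11 for decorin, -0.43 to 0.22 for biglycan, -0.16 to 0.80 for fibromodulin, -0.10 to 0.75 for lumican, 0.09 to 0.60 for prolargin and -0.16 to 0.47 for the median of the 5. Over all features, 0 to 2 passed when 1 library was left out, and 2 with the 3 libraries left out together. These were Plac9 and XLOC_020489 without sham 4, and Plac9 and XLOC_001089 without the 3, named after their values were seen. With the replicate block 0 features passed. Each replicate number holds a TBI and a sham library, so the block cannot move the differences. Their unchanged values, with -0.09 for decorin, therefore carry no information on stability. Their errors did move, with an SE of 0.37 for lumican and 0.93 for fibromodulin, beside 0.65 and 0.78 without the block. Same-numbered libraries had correlations of their deviations from -0.38 to 0.31, and 1 of 10 libraries was closest to its own number. Such correlations cannot show whether same-numbered samples were handled together, and the labels state no pairing. Depth is unknown, and the spread over 5 libraries limits what can be detected.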

Other observations

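Nyctalopin (Nyx), a leucine-rich protein known from retinal bipolar cells, was at 9.29 FPKM in TBI 1, and at 0.113 to 0.294 FPKM in the other TBI libraries, against 0.136 to 0.360 FPKM in sham. It was singled out after its values were seen. Its log2 difference was 0.72 (SE 0.67, limma's adjusted p = 0.983).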
